A study of Homo sapiens with 12 samples.

Results

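The genes described here are 10 members of the AP-1 transcription factor family and its BATF branch, namely JUN, JUNB, JUND, FOS, FOSB, FOSL1, FOSL2, ATF3, BATF2 and BATF3. The rule names them and matches their Ensembl gene IDs, with no threshold on a measured value, although earlier results of these data were known when they were chosen. They make up 10 of the 40173 gene IDs in the deposited table. The RNA came from an established human melanoma line, 624Mel, and was sequenced as 3 libraries for each of 4 conditions. The question of the design is how loss of MITF, the transcription factor that governs melanocyte differentiation, alters the response of melanoma cells to interferon-γ (IFNγ). Cells of every condition went through reverse transfection, and received one of these: a negative control siRNA, called siCTRL, or siMITF, which targets the MITF mRNA. IFNγ at 5 ng/mL was added 24 h after transfection to the siCTRL + IFNγ and siMITF + IFNγ cells, and RNA was collected 24 h later. The knockdown rests on a single siRNA against a single control siRNA in a single cell line, and knockdown leaves some MITF, so the cells are not a knockout. The labels do not say whether the 3 libraries of a condition came from separate cultures, while the study's methods call for independent biological replicates in all its experiments. If they did not, the p-values measure only the spread between these libraries, which may be technical.

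AP-1 is a dimer of basic leucine zipper proteins. Jun proteins pair with each other or with Fos proteins, Fos proteins need a partner, and the dimers bind the DNA sequence TGANTCA or the related cyclic AMP response element. The Jun and Fos genes are known for fast and short-lived transcription after growth factors, cytokines and stress, through MAP kinases. BATF proteins have a leucine zipper but no activation domain of the Fos kind, pair with Jun proteins, and together with interferon regulatory factors bind composite sites in immune cells. In melanoma, JUN and FOSL1 are known as high in dedifferentiated cell states with low MITF.

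The values are TPM, transcript counts scaled to transcript length and library size, so levels can be set side by side between genes. The depth of the libraries is unknown. Values totalled between 975336 and 982632 TPM per library, 11850 to 12377 gene IDs reached 2 TPM, and mitochondrial genes took 7.42 to 16.9% of the summed TPM. MITF was at 187, 229 and 217 TPM in the siCTRL libraries and at 36.01, 49.7 and 41.7 TPM in the siMITF libraries, and fell by 2.29 on the log2 scale (limma, adjusted p = 1.2e-06) without IFNγ and by 2.14 with it (limma, adjusted p = 2.4e-06). All 7 melanocytic markers were detected and their summed level was lower in siMITF cells, at 2438 to 2729 TPM against 7825 to 9238 TPM in siCTRL cells. Of the 7, 6 fell and 1, S100B, rose with siMITF, from 81.8 ± 4.13 to 167 ± 4.42 TPM (SD, n = 3; log2 fold change 1.02, limma, adjusted p = 2.2e-07). Of the markers of other cell types at 2 TPM or more, the leukocyte list held only LYZ, at no more than 5.22 TPM, the fibroblast list only LUM, at no more than 7.42 TPM, and the endothelial list none. In the keratinocyte list only KRT10 reached that level, at 38.9 to 60.8 TPM over the 12 libraries. The other 4 leukocyte markers, 1 of them listed at 0 throughout, and the other 4 fibroblast markers were under 2 TPM. The summed leukocyte list was at 2.99 to 3.19 TPM in siCTRL, 1.96 to 2.31 TPM in siCTRL + IFNγ, 4.62 to 5.55 TPM in siMITF and 3.93 to 4.35 TPM in siMITF + IFNγ libraries, and the fibroblast list at 5.31 to 6.73, 2.68 to 3.78, 7.44 to 8.73 and 4.95 to 5.84 TPM. Their part in the results was not tested. In bulk RNA of this kind, fewer cells expressing a gene and less of its RNA per cell cannot be told apart.

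Of the 10 genes, 9 had a mean of at least 2 TPM in some condition and were tested. FOSB was under that limit in every condition, and BATF2 passed it only through the conditions with IFNγ. Counts of genes that rose with IFNγ or with both treatments, here and below, include BATF2. Its differences in those comparisons rest on the same values as the filter and are given without a test. Fold changes are on the scale of log2(TPM + 1), which understates the change of low genes, and come from limma with p-values adjusted by the Benjamini-Hochberg method over all 12773 tested gene IDs. A gene is said to have risen or fallen when the adjusted p was under 0.05. In siMITF against siCTRL cells JUN, JUND and FOSL1 rose and JUNB and FOS fell. That is 3 of 9 higher and 2 of 9 lower, against 21% of all tested genes higher and 13.8% lower. JUN and JUND also reached a 2-fold change, as did 6.1% of all tested genes. IFNγ in siCTRL cells raised 5 of the 9, FOS, FOSL1, FOSL2, BATF2 and BATF3, and lowered none, against 6.8% and 6.14% of all tested genes. BATF2 and BATF3 passed 2-fold in that comparison, against 2.52% of all tested genes. In siMITF cells IFNγ raised 4 of the 9, FOS, FOSL2, BATF2 and BATF3, and lowered none, against 7.99% and 12.2% of all tested genes, and 2 passed 2-fold, against 2.95%. With IFNγ present in both arms, JUN, JUND, ATF3 and BATF3 were higher with siMITF than with siCTRL and JUNB was lower, which is 4 and 1 of the 9, against 18.4% and 14.7% of all tested genes, and 1 passed 2-fold, against 5.68%. The median log2 fold change of the 9 genes was 0.18 with siMITF, beside 0.06 over all tested genes, and 0.40 with IFNγ in siCTRL cells, beside -0.07.

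**Figure D1:**
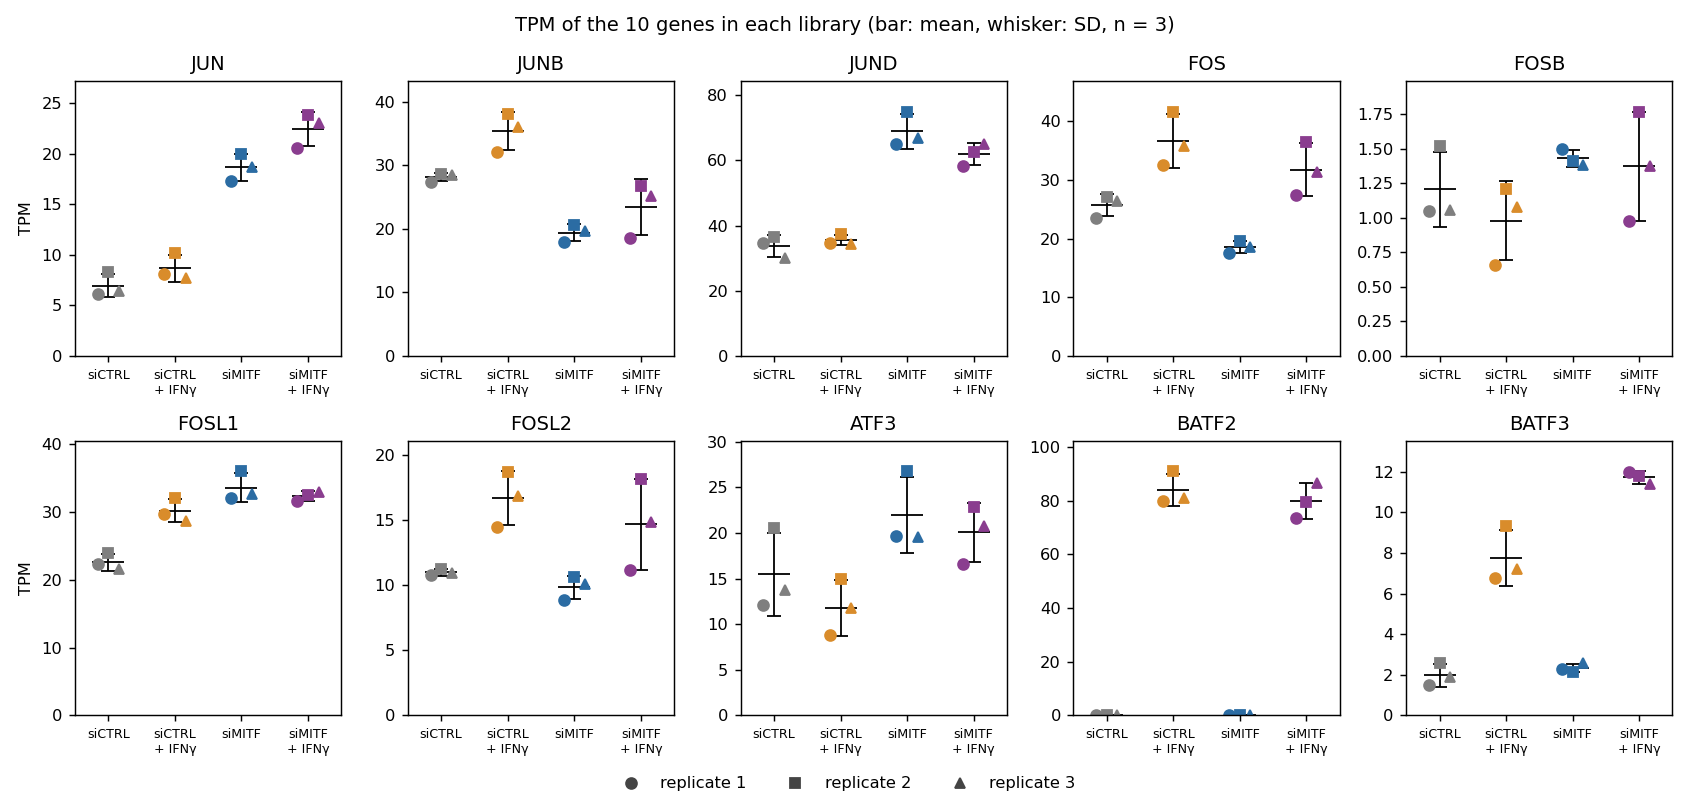
TPM (vertical axes, from 0, a different scale in each panel) of the 10 genes in the 12 libraries, by condition, with the mean and SD of the 3 libraries and the replicate number as the shape of the point. JUN and JUND are higher in all siMITF libraries than in all siCTRL libraries, BATF2 and BATF3 are higher in all libraries with IFNγ than in all without, and FOSB stays under 2 TPM throughout.

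JUN and JUND had the largest fold changes of the 9 genes with siMITF and BATF2 the largest with IFNγ, and their upstream sequences are shown for that reason. They are the 250 bases before the transcription start in RefSeq on GRCh38.p14, read 5′ to 3′ in the direction of the gene. The JUN sequence lies at chr1:58784048-58784297 on the minus strand, that of JUND at chr19:18281623-18281872 on the minus strand and that of BATF2 at chr11:64990278-64990527 on the minus strand. Capitals mark every match to the motifs described after them.
JUN: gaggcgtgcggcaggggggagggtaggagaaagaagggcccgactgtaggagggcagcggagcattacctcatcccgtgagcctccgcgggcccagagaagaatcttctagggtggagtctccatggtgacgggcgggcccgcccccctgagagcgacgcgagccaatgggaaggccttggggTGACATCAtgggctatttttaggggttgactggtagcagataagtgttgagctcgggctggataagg
JUND: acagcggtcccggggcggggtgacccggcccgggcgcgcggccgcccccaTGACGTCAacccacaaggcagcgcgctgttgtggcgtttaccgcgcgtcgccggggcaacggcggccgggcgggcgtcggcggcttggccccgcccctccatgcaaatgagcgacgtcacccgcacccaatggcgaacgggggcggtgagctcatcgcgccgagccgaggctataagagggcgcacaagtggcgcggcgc
BATF2: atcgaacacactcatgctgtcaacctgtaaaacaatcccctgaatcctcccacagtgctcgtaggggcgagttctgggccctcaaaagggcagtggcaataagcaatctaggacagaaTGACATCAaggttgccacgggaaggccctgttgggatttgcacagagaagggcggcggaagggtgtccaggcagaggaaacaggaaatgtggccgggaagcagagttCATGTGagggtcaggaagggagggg

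The motifs were searched on both strands in windows from 250 bases before to 50 bases after the start, for which RefSeq entries matched 8 of the 10 genes in 9 entries, ATF3 having a pair. FOSL1 and BATF3 had no entry. The JUN sequence held TGACATCA from 67 to 60 bases before the start, the variant AP-1 site known from this promoter, which 2.61% of all 35116 promoter entries hold. JUND held the cyclic AMP response element TGACGTCA from 200 to 193 bases before its start, which 1.85% of all entries hold. BATF2 held TGACATCA from 132 to 125 bases and the E-box CATGTG from 25 to 20 bases before its start, and 11.1% of all entries hold that E-box, the kind of site MITF is known to bind. One ATF3 entry also held TGACATCA, and FOSL2 held CACATG, which is CATGTG on the other strand, before its start and an AP-1 site, TGANTCA, just after it. The AP-1 site was in 7.71% and the E-box CACGTG in 7.26% of all entries, and CACGTG was in none of the 9. A pair of GAAA spaced by 2 bases, the core of the interferon-stimulated response element, was in 3.57% of all entries and in none of the 9 windows, which says only that these letters are not there. No match overlapped another. The RefSeq start used for BATF2 lies inside the longer GENCODE gene, whose own start is at 64997018 on the minus strand. The bases before that start were not searched. The starts used for FOSL2 and ATF3 also lie inside their GENCODE genes. A match is a description of letters, not a bound site.

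JUN, the founding member of the family, rose with siMITF. It lies on chromosome 1 at 58776845-58784048 (GRCh38, minus strand) and its main transcript has 1 exon. The siCTRL libraries held 6.16, 8.26 and 6.38 TPM and the siMITF libraries 17.3, 19.96 and 18.7 TPM. With IFNγ the values were 8.06, 10.2 and 7.72 TPM in siCTRL cells and 20.6, 23.8 and 23.02 TPM in siMITF cells. Every siMITF library was above every siCTRL library, with IFNγ and without, and the mean was 2.69-fold higher without IFNγ. The log2 fold change with siMITF was 1.32 ± 0.12 (SE, limma, adjusted p = 4.6e-06), and 1.29 ± 0.12 under IFNγ (adjusted p = 6.2e-06, limma). For IFNγ itself, the log2 differences were 0.28 in siCTRL cells and 0.26 in siMITF cells, and neither passed the test (limma, adjusted p = 0.172 and 0.171). They passed once the replicate number was a block (limma, adjusted p = 0.0231 and 0.0283). They also passed with quantile normalization (limma, adjusted p = 0.0404 and 0.0127), with centring on the library median and after rescaling without mitochondrial genes. The order of the levels was siCTRL, siCTRL + IFNγ, siMITF, siMITF + IFNγ, and only the libraries of the lowest pair overlapped.

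JUND, the Jun protein that is broadly expressed in resting cells, was the most abundant of the 10 genes by TPM in cells without IFNγ. It lies on chromosome 19 at 18279694-18281622 (minus strand, 1 exon). Its libraries held 34.6, 36.4 and 29.9 TPM with siCTRL and 64.9, 74.99 and 66.9 TPM with siMITF, with no overlap. The log2 fold change was 1.01 ± 0.09 (SE, limma, adjusted p = 2.3e-06). This sits at the 2-fold limit, and leaving out siCTRL replicate 3 or siMITF replicate 2 gave 0.93 and 0.95, with an adjusted p still under 0.05. With IFNγ the values were 34.7, 37.4 and 34.5 TPM in siCTRL cells and 58.4, 62.4 and 65.1 TPM in siMITF cells, again without overlap, and the fold change was 0.79 ± 0.09 (SE, limma, adjusted p = 2.4e-05). IFNγ moved JUND by 0.08 in siCTRL cells and by -0.15 in siMITF cells on the log2 scale (95% intervals -0.11 to 0.27 and -0.34 to 0.04), and neither passed the test.

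JUNB, which often opposes JUN at promoters of growth genes, went the other way with siMITF. It lies on chromosome 19 at 12791486-12793315 (plus strand, 1 exon). The values were 27.4, 28.7 and 28.4 TPM with siCTRL and 17.98, 20.5 and 19.7 TPM with siMITF. With IFNγ they were 32.1, 38.1 and 36.02 TPM in siCTRL cells and 18.5, 26.7 and 25.2 TPM in siMITF cells. All siMITF libraries were below all siCTRL libraries of the same treatment. JUNB fell by 0.52 ± 0.12 (SE) on the log2 scale without IFNγ (limma, adjusted p = 0.00541) and by 0.59 with it (limma, adjusted p = 0.00255). The IFNγ differences of 0.32 in siCTRL cells and 0.25 in siMITF cells did not pass (limma, adjusted p = 0.116 and 0.174), but passed with the replicate block (limma, adjusted p = 0.0145 and 0.0350) and without siMITF + IFNγ replicate 1 (limma, adjusted p = 0.0221 and 0.0101). That library was the lowest of its condition. An exon of HOOK2 overlaps JUNB on the opposite strand. HOOK2 reached 10.3 TPM, and the library kit does not mark strand, so reads of the shared part cannot be assigned to one gene.

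Summed over JUN, JUNB and JUND, the Jun genes reached 68.7 ± 4.36 TPM (SD, n = 3) in siCTRL cells, 79.6 ± 5.52 TPM with IFNγ, 107 ± 7.80 TPM with siMITF and 108 ± 9.05 TPM with both. The makeup of the sum, which was not tested, differed between the siRNAs. JUNB was 41.05% ± 2.52 (SD) of it in siCTRL cells and 18.1% ± 0.484 in siMITF cells, JUN went from 10.1% ± 1.12 to 17.4% ± 0.289, and JUND from 48.9% ± 2.37 to 64.4% ± 0.769. With IFNγ alone the shares were 10.8% ± 1.00 for JUN, 44.5% ± 1.57 for JUNB and 44.7% ± 1.42 for JUND. With both treatments JUNB was at 21.6% ± 2.39, JUN at 20.8% ± 0.462 and JUND at 57.6% ± 2.31. These shares are of RNA and say nothing about which dimers formed.

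**Figure D2:**
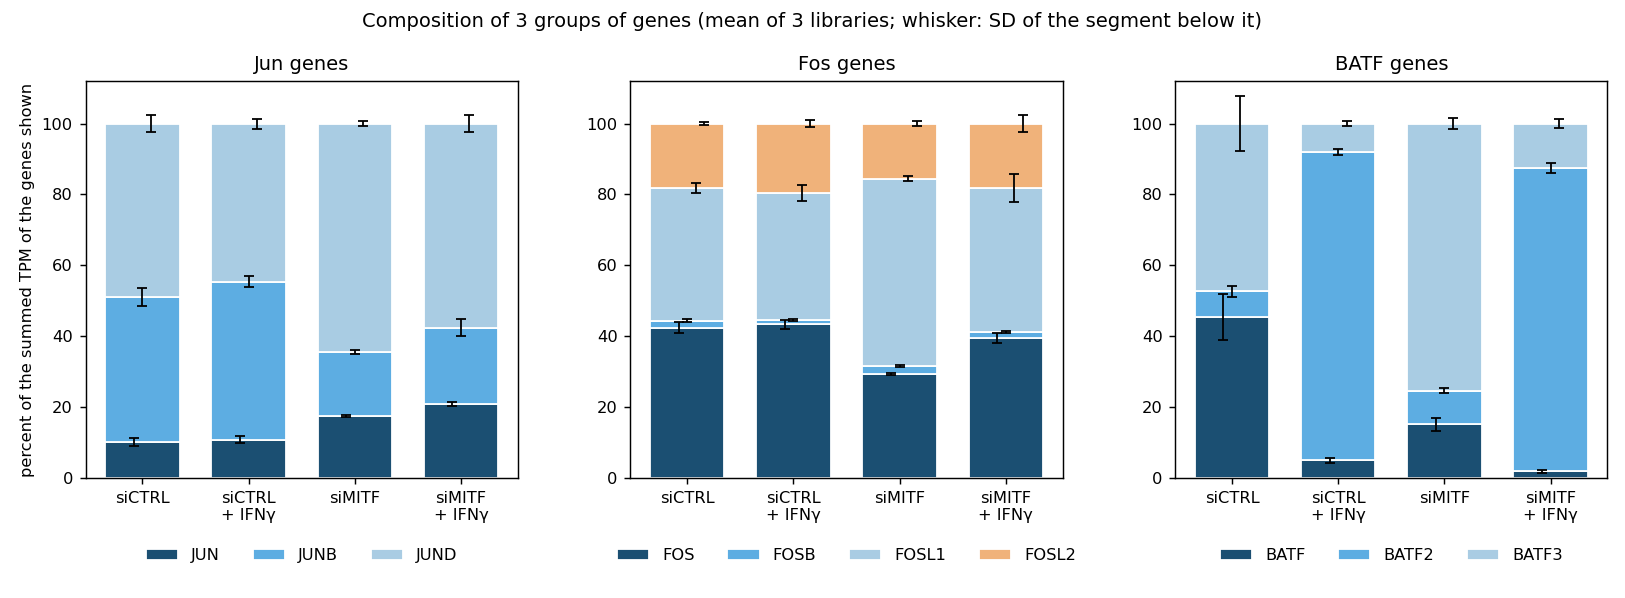
Share of each gene in the summed TPM of the Jun genes (JUN, JUNB, JUND), the Fos genes (FOS, FOSB, FOSL1, FOSL2) and the BATF genes (BATF, BATF2, BATF3), as means of 3 libraries with the SD of each segment. The JUNB segment is smaller and the JUND segment larger with siMITF, FOSL1 makes up 52.9% of the Fos sum in siMITF cells, and BATF2 fills 87.0% and 85.5% of the BATF sum with IFNγ.

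Among the Fos genes, FOS and FOSL1 differed in direction with siMITF. FOS, the classical immediate early gene of the family, lies on chromosome 14 at 75278826-75282230 (plus strand). Its values were 23.6, 26.99 and 26.5 TPM in siCTRL libraries and 17.5, 19.6 and 18.6 TPM in siMITF libraries, all of the latter below all of the former. FOS fell by 0.45 ± 0.12 (SE) on the log2 scale (limma, adjusted p = 0.00961). With IFNγ the libraries held 32.6, 41.6 and 35.8 TPM with siCTRL and 27.4, 36.5 and 31.4 TPM with siMITF, above all libraries of the same siRNA without it. The rise was 0.49 in siCTRL cells (limma, adjusted p = 0.0141) and 0.73 in siMITF cells (limma, adjusted p = 6.9e-04), and the former lost its call without siCTRL replicate 1 (limma, adjusted p = 0.0628) or without the 4 replicate 2 libraries (limma, adjusted p = 0.0749). Under IFNγ the siMITF difference was -0.20, with overlapping libraries, and did not pass (limma, adjusted p = 0.202), but passed with the replicate block (limma, adjusted p = 0.0277). The increment with IFNγ was larger in siMITF than in siCTRL cells by 0.24 (95% interval -0.11 to 0.60), which did not pass (limma, adjusted p = 0.866).

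FOSL1 encodes FRA1, a Fos protein known from invasive and dedifferentiated tumour cells. It lies on chromosome 11 at 65892049-65900573 (minus strand). It was at 22.3, 23.97 and 21.5 TPM in siCTRL libraries and rose to 32.1, 35.99 and 32.6 TPM with siMITF and to 29.7, 31.99 and 28.7 TPM with IFNγ. With both treatments the values were 31.6, 32.5 and 32.98 TPM. The siCTRL libraries were below all others, and the libraries with both treatments overlapped with those of each single treatment. FOSL1 rose by 0.55 ± 0.08 (SE) with siMITF (limma, adjusted p = 1.4e-04), by 0.40 with IFNγ in siCTRL cells (limma, adjusted p = 0.00434) and by 0.50 with both (limma, adjusted p = 2.2e-04). In siMITF cells the IFNγ difference was -0.05 (95% interval -0.22 to 0.12). The interaction, in which the IFNγ difference of siCTRL cells is taken from that of siMITF cells, was -0.45 ± 0.11 (SE). It missed the threshold (limma, adjusted p = 0.104) and passed it with the replicate block (limma, adjusted p = 0.0196) and after rescaling without mitochondrial genes (limma, adjusted p = 0.0159).

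FOSL2, which encodes FRA2, lies on chromosome 2 at 28392448-28417317 (plus strand). It was at 10.8, 11.3 and 10.95 TPM in siCTRL libraries and 14.5, 18.7 and 16.8 TPM with IFNγ. In siMITF cells it was at 8.84, 10.6 and 10.1 TPM without and 11.1, 18.1 and 14.8 TPM with IFNγ. All libraries with IFNγ were above those of the same siRNA without it, and the last condition had the widest range. The rises of 0.55 in siCTRL cells and 0.51 in siMITF cells passed the test narrowly (limma, adjusted p = 0.0277 and 0.0275). In siCTRL cells the call was lost without siCTRL replicate 1, 2 or 3 or siCTRL + IFNγ replicate 2 or 3 (limma, adjusted p = 0.0713 to 0.0872), and in siMITF cells without siMITF replicate 1, 2 or 3 or siMITF + IFNγ replicate 2 or 3 (limma, adjusted p = 0.0507 to 0.106). Without the 4 replicate 2 libraries the adjusted p was 0.123 and 0.141 (limma). With siMITF the difference was -0.15 (95% interval -0.47 to 0.17) and did not pass, although the libraries did not overlap.

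FOSB, on chromosome 19 at 45467995-45475179 (plus strand), stayed low. The values were 1.05, 1.52 and 1.05 TPM with siCTRL, 0.658, 1.21 and 1.08 TPM with siCTRL + IFNγ, 1.498, 1.41 and 1.38 TPM with siMITF and 0.974, 1.77 and 1.38 TPM with both. The libraries overlapped in each comparison of the design, and the gene was not tested. Of the summed Fos TPM, which was 60.5 ± 3.06 (SD, n = 3) in siCTRL cells and 63.4 ± 3.91 in siMITF cells, FOSL1 took 37.4% ± 1.43 and 52.9% ± 0.806, and FOS took 42.4% ± 1.64 and 29.3% ± 0.351. With IFNγ the sums were 84.4 ± 8.21 TPM in siCTRL cells and 80.2 ± 8.91 TPM in siMITF cells, of which FOS took 43.3% ± 1.25 and 39.5% ± 1.35.

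**Figure D3:**
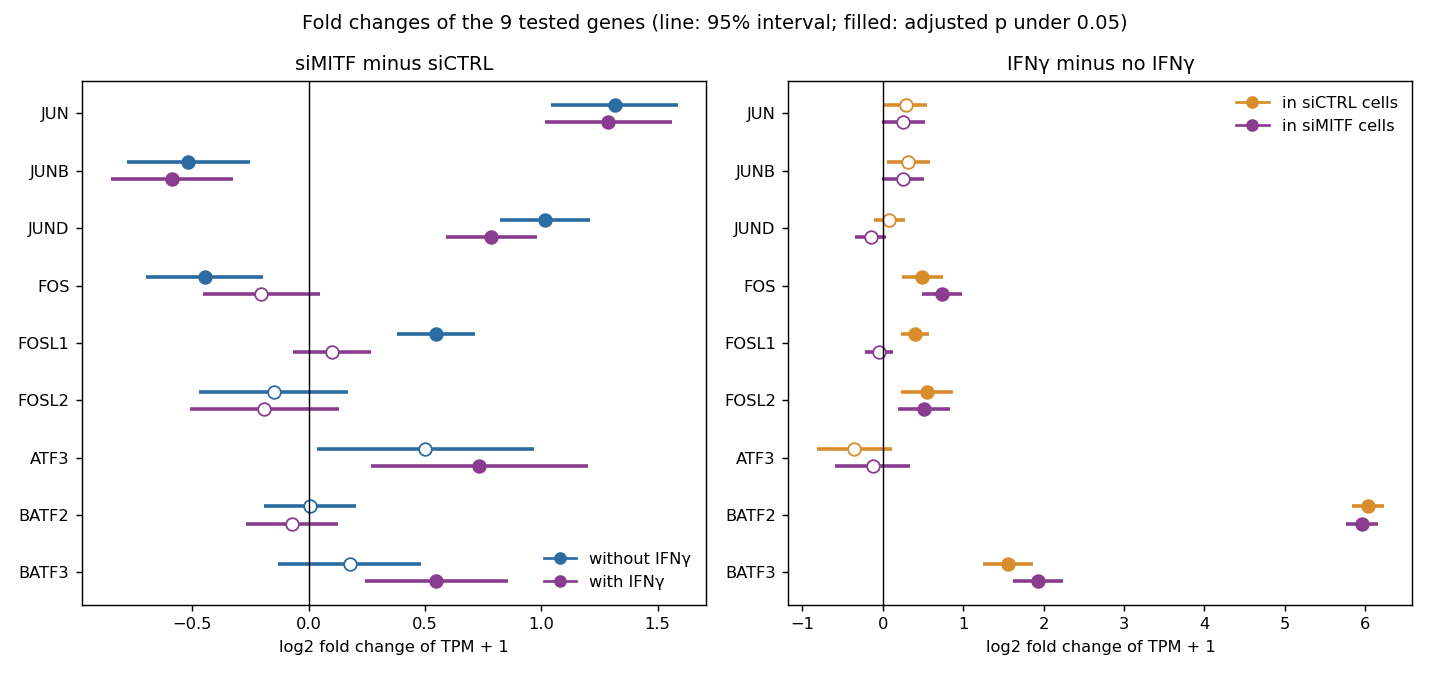
Log2 fold changes of TPM + 1 (horizontal axes) of the 9 tested genes for siMITF (left) and IFNγ (right), with 95% intervals from limma and filled points where the adjusted p was under 0.05. JUN, JUND and JUNB sit on the same side of 0 with and without IFNγ on the left, and on the right FOSL1 is at 0.40 in siCTRL cells and -0.05 in siMITF cells while BATF2 is near 6 in both. BATF2 was tested only through its level in the conditions with IFNγ.

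ATF3, a stress-induced factor of the ATF branch that pairs with Jun proteins, had the largest SD of the 10 genes among the siCTRL libraries, 15.5 ± 4.51 TPM (mean and SD, n = 3). It lies on chromosome 1 at 212565334-212620777 (plus strand). Its values were 12.04, 20.6 and 13.8 TPM with siCTRL and 19.6, 26.8 and 19.5 TPM with siMITF, which overlap. With IFNγ they were 8.77, 14.9 and 11.7 TPM and 16.6, 22.8 and 20.7 TPM, which do not. Under IFNγ ATF3 rose with siMITF by 0.73 ± 0.21 (SE, limma, adjusted p = 0.0193), a call lost without siCTRL + IFNγ replicate 1, siMITF + IFNγ replicate 2 or siMITF + IFNγ replicate 3 (limma, adjusted p = 0.0676, 0.0701 and 0.0556). Without IFNγ the difference was 0.50 and missed the threshold (limma, adjusted p = 0.0908), but passed with the replicate block (limma, adjusted p = 8.0e-04) and without siCTRL replicate 2, the highest siCTRL library (log2 difference 0.71, limma, adjusted p = 0.0224). IFNγ in siCTRL cells gave -0.36, which did not pass (limma, adjusted p = 0.329) but passed with the block (limma, adjusted p = 0.0151). In each of the 3 replicate numbers the siCTRL + IFNγ value was below the siCTRL value.

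The BATF genes had the largest responses to IFNγ. BATF2, known as an interferon-inducible factor of myeloid cells, lies on chromosome 11 at 64987945-64997018 (minus strand). It was at 0.314, 0.262 and 0.294 TPM with siCTRL and 0.287, 0.257 and 0.343 TPM with siMITF. With IFNγ the values were 79.9, 90.98 and 81.1 TPM and 73.4, 79.6 and 86.6 TPM. The libraries without IFNγ were all under 1 TPM, those with it were all above 70 TPM, and libraries of both siRNAs overlapped in either case. The ratio of mean TPM with IFNγ to that without was 289.9 in siCTRL cells and 270.1 in siMITF cells, and rests on low denominators. On the log2(TPM + 1) scale the differences with IFNγ were 6.04 ± 0.09 (SE) in siCTRL cells and 5.96 in siMITF cells. They are given without a test, because BATF2 passed the filter only through the conditions with IFNγ. The siMITF differences were 0.01 without and -0.07 with IFNγ (95% intervals -0.19 to 0.20 and -0.27 to 0.13). The interaction was -0.08 (95% interval -0.36 to 0.20).

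BATF3, best known for the development of cross-presenting dendritic cells, lies on chromosome 1 at 212686417-212699840 (minus strand), 65.6 kb from ATF3. It was at 1.48, 2.58 and 1.88 TPM with siCTRL and 2.28, 2.16 and 2.56 TPM with siMITF, which overlap. IFNγ brought it to 6.75, 9.32 and 7.20 TPM with siCTRL and 12.001, 11.8 and 11.4 TPM with siMITF, and all of the latter were above all of the former. The ratio of mean TPM with IFNγ to that without was 3.92 in siCTRL cells and 5.02 in siMITF cells. BATF3 rose by 1.56 ± 0.14 (SE, limma, adjusted p = 5.9e-06) and 1.93 (limma, adjusted p = 5.7e-07) with IFNγ, and by 0.55 with siMITF under IFNγ (limma, adjusted p = 0.00974). The interaction of 0.37 (95% interval -0.06 to 0.81) did not pass (limma, adjusted p = 0.759), so the larger increment in siMITF cells was not shown to differ from that in siCTRL cells.

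BATF, the third gene of the branch and listed here among the partners, had another pattern. It was at 2.01, 1.92 and 1.67 TPM with siCTRL, 5.29, 5.13 and 3.98 TPM with siCTRL + IFNγ, 0.395, 0.501 and 0.504 TPM with siMITF and 1.79, 1.93 and 1.48 TPM with both. BATF reached a mean of 2 TPM only in siCTRL + IFNγ cells, so its log2 differences against that condition are given without a test, 1.01 for IFNγ in siCTRL cells and -1.08 for siMITF under IFNγ. In the comparisons without that condition, BATF fell by 0.96 with siMITF (limma, adjusted p = 4.2e-05) and rose by 0.89 with IFNγ in siMITF cells (limma, adjusted p = 1.7e-04). In the summed TPM of the 3 BATF genes, 4.13 ± 0.539 (SD, n = 3) in siCTRL and 3.10 ± 0.273 in siMITF cells, BATF went from 45.5% ± 6.51 to 15.1% ± 1.93 with siMITF. BATF2 took 7.13% ± 1.44 of the sum in siCTRL cells and 87.03% ± 0.797 of 96.5 ± 7.70 TPM with IFNγ.

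Cells with both treatments were compared with siCTRL cells as well. JUN, JUND, FOSL1, BATF2 and BATF3 rose, which is 5 of the 9 tested genes, and none fell, against 21.1% of all tested genes higher and 23.4% lower. JUN, BATF2 and BATF3 passed 2-fold, against 8.75% of all tested genes. The values were 1.57 ± 0.12 for JUN, 0.87 ± 0.09 for JUND, 5.97 ± 0.09 for BATF2 and 2.11 ± 0.14 for BATF3 (log2, SE). JUNB at -0.27, FOS at 0.29, FOSL2 at 0.36 and ATF3 at 0.38 did not pass (limma, adjusted p = 0.0909, 0.0602, 0.0629 and 0.174). All 4 passed with the replicate block (limma, adjusted p = 0.0144, 0.00316, 0.00727 and 0.00421), which makes 8 higher and 1 lower, in a fit that called 56.9% of all tested genes in either direction against 44.5% without the block. Single libraries also decided these. JUNB passed without siMITF + IFNγ replicate 2 (limma, adjusted p = 0.0368), FOSL2 without siMITF + IFNγ replicate 1 (limma, adjusted p = 0.00418) and ATF3 without siCTRL replicate 2 (limma, adjusted p = 0.0437). FOS passed without siMITF + IFNγ replicate 1 or without siCTRL + IFNγ replicate 1 or 2, although the latter condition is not in the comparison (limma, adjusted p = 0.0166, 0.0435 and 0.0422). This comparison shares its siCTRL libraries with those of the single treatments.

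None of the 9 genes passed the test of the interaction in limma, against 0.705% of all tested genes with a positive and 0.243% with a negative interaction. Of the 9, 1, FOSL1, had an unadjusted p under 0.05 in limma, as did 980 of all 12773 tested genes. With the replicate block the count was 1, again FOSL1, against 2.16% of all tested genes. For the other 8 genes the absolute interaction was at most 0.37, that of BATF3.

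The libraries numbered 2 stood apart. Their mitochondrial share was the lowest, 7.42 to 12.7% against 12.8 to 16.9% for number 1 and 14.02 to 16.1% for number 3, and they held the highest value in 32 of the 40 sets of 3 libraries formed by the 10 genes and 4 conditions. Over all tested genes the same was true of 65.9% of such sets. JUN, JUNB, FOS, FOSL2 and ATF3 were highest in replicate 2 in all 4 conditions, and the share of all tested genes for which this held was not computed. With the 4 replicate 2 libraries left out, 4 genes were higher and 2 lower with siMITF, 3 were higher with IFNγ in siCTRL cells and 3 in siMITF cells, 4 were higher and 1 lower with siMITF under IFNγ, and 6 were higher with both treatments. The shares of all tested genes called in either direction were then 24.1%, 5.86%, 10.6%, 23.3% and 33.3% in the same order. With the replicate block, which takes such shared deviations out, the counts were 4 higher and 2 lower with siMITF, 7 higher and 1 lower with IFNγ in siCTRL cells, 6 higher with IFNγ in siMITF cells, and 4 higher and 2 lower with siMITF under IFNγ. The block raised the shares of all tested genes called as well, to 47.7%, 25.7%, 35.7% and 46.3%, from 34.8%, 12.9%, 20.2% and 33.1%. The mitochondrial share was also higher with IFNγ than without it in each replicate number. In siCTRL cells it was 16.9, 8.45 and 15.7% with IFNγ against 14.2, 7.42 and 14.8% without. In siMITF cells it was 16.9, 12.7 and 16.1% against 12.8, 10.1 and 14.02%. Fits after rescaling without mitochondrial genes are given with the alternatives, but the part of this share in the values was not tested.

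Proteins that pair with Jun and Fos proteins or bind beside them were followed as a list of 20 genes, of which 16 were tested. With IFNγ in siCTRL cells 6 rose and 1 fell, beside 6.8% and 6.14% of all tested genes, with a median log2 fold change of 0.02 beside -0.07 over all tested genes. MAF, a large Maf factor known from macrophages and T cells, went from 2.11 ± 0.194 to 10.1 ± 1.73 TPM (SD, n = 3), a rise of 1.82 (limma, adjusted p = 1.1e-07). MAFF, a small Maf protein without an activation domain, rose by 1.32 (limma, adjusted p = 1.4e-05). With siMITF 2 of the 16 rose and 3 fell, beside 21% and 13.8% of all tested genes. IRF4, the interferon regulatory factor that shares composite sites with BATF and is known to act with MITF on pigment genes, was at 13.4 ± 0.995 TPM with siCTRL and 1.34 ± 0.314 TPM with siMITF and fell by 2.63 (limma, adjusted p = 5.9e-09). IRF4 rose with IFNγ by 1.18 in siCTRL cells (limma, adjusted p = 1.2e-05) and by 1.60 in siMITF cells (limma, adjusted p = 4.5e-07). In siMITF cells 7 of the 16 rose with IFNγ and 1 fell, beside 7.99% and 12.2% of all tested genes, and with siMITF under IFNγ 3 rose and 4 fell, beside 18.4% and 14.7%. These counts include BATF and JDP2, each of which was tested only through its level in 1 condition.

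**Figure D4:**
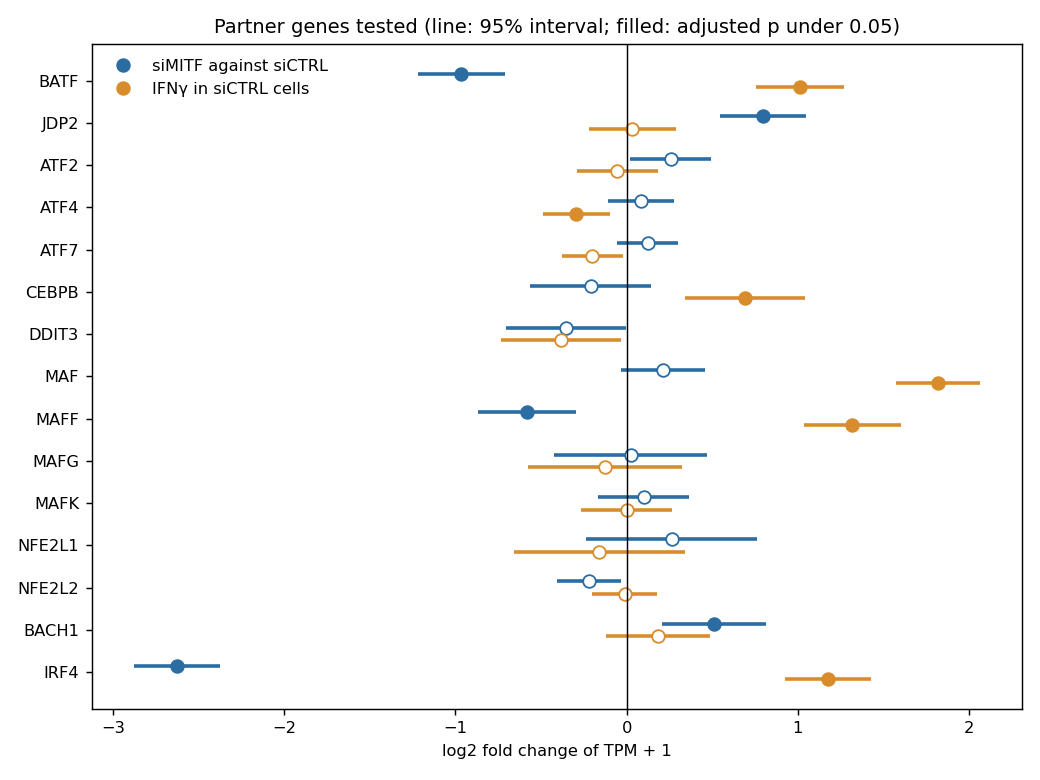
Log2 fold changes of TPM + 1 (horizontal axis) of tested partner genes for siMITF and for IFNγ in siCTRL cells, with 95% intervals from limma and filled points where the adjusted p was under 0.05. IRF4 and BATF lie below 0 with siMITF and above 0 with IFNγ, and MAF and MAFF lie above 1 with IFNγ. BATF was tested only through its level in siCTRL + IFNγ cells and JDP2 only through its level in siMITF cells.

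The MAP kinases and the Elk and SRF factors through which Jun and Fos genes are known to be switched on made a list of 21 genes, of which 20 were tested. With siMITF 3 rose and 3 fell, near the 21% and 13.8% of all tested genes, and with IFNγ in siCTRL cells 1 rose and none fell, beside 6.8% and 6.14%. MAPK11, a p38 kinase, went from 8.93 ± 0.653 to 18.9 ± 0.398 TPM and rose by 1.00 (limma, adjusted p = 9.3e-05). RNA levels of kinases do not measure their activity.

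Other genes known as immediate early genes were listed as 24 genes with 21 tested. Whether they share inputs with FOS and JUNB in these cells was not tested. With siMITF 10 rose and 4 fell, beside 21% and 13.8% of all tested genes, with a median of 0.27 beside 0.06 over all tested genes. CCN1 and CCN2, which encode matricellular proteins, rose by 2.35 and 1.13 (limma, adjusted p = 1.6e-07 and 8.6e-04), CCN1 from 14.1 ± 2.05 to 76.2 ± 9.45 TPM. EGR1, a zinc finger factor, and NR4A3, a nuclear receptor, fell by 1.29 and 1.60 (limma, adjusted p = 6.5e-04 and 9.5e-07), as FOS and JUNB did. With IFNγ in siCTRL cells 2 rose and 2 fell, beside 6.8% and 6.14%. ZFP36, which speeds the decay of AU-rich mRNAs, rose by 1.10 there and by 1.13 in siMITF cells (limma, adjusted p = 9.3e-06 and 6.1e-06).

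Genes known as AP-1 targets made a list of 24, of which 14 were tested. The others, among them all the matrix metalloproteinase genes listed, had means under 2 TPM in every condition. The counts and medians below leave them out. With siMITF 6 rose and 2 fell, beside 21% and 13.8% of all tested genes, with a median of 0.21 beside 0.06. With IFNγ in siCTRL cells 3 rose and 2 fell, beside 6.8% and 6.14% of all tested genes, with a median of -0.13 beside -0.07. CCL2, a monocyte chemokine, was at 1.77 ± 0.307 TPM in siCTRL, 15.1 ± 2.20 TPM in siCTRL + IFNγ, 42.5 ± 5.77 TPM in siMITF and 137 ± 20.7 TPM in siMITF + IFNγ cells. TNC, which encodes the matrix protein tenascin C, was at 1.52 ± 0.346, 12.2 ± 3.23, 27.6 ± 2.04 and 95.3 ± 16.1 TPM in the same order. Both rose in both comparisons, CCL2 by 3.97 with siMITF and 2.53 with IFNγ, and TNC by 3.51 and 2.37 (limma, adjusted p = 1.4e-09, 4.9e-08, 1.9e-08 and 8.4e-07). SPP1, which encodes osteopontin, fell by 1.94 with siMITF (limma, adjusted p = 3.3e-08) and rose by 2.52 with IFNγ (limma, adjusted p = 1.9e-09). These genes answer to many other factors, and their dependence on AP-1 was not tested.

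The genes closest in pattern were found as those with the smallest root mean square difference in centred log2(TPM + 1) over the 12 libraries, for each of the 4 genes that passed 2-fold in any comparison. NR2F1 (0.0914), SLC1A5 (0.105) and ZNF385A (0.113) were nearest to JUN. NR2F1, an orphan nuclear receptor, had means of 6.75, 8.68, 19.4 and 21.2 TPM in siCTRL, siCTRL + IFNγ, siMITF and siMITF + IFNγ cells, beside 6.93, 8.65, 18.6 and 22.5 TPM for JUN. FBXO33 (0.0721), HEY2 (0.0785) and HCN2 (0.0824) were nearest to JUND. For BATF2 they were IFI27 (0.197), UBE2L6 (0.332) and SERPING1 (0.342), which are known as interferon-induced genes. For BATF3 they were PSME1 (0.166), a subunit of the proteasome activator that IFNγ is known to induce, MMP25 (0.171) and LRCH2 (0.178), and PSME1 had means of 34.7, 109, 45.6 and 179 TPM in the same order of conditions. Likeness over 12 libraries in 4 conditions is a description only.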

How the data were processed

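RNA of 624Mel cells was sequenced in 12 libraries, 3 in each of 4 conditions. Read trimming by the authors used Trimmomatic 0.39, and their kallisto quantification on an Ensembl GRCh38 transcriptome was summed to genes, so the deposited values used here are TPM per gene. The Ensembl release is not given in the sources used here. Depth is unknown with TPM, so no counting error or detection floor can be given, and values depend on the rest of the library because each sums to nearly the same total. The study's count-based test was not used, since the values are not counts. Reads of near-identical copies were shared out by the quantification, and no member had values identical to another gene ID.

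The 10 members and the gene lists were chosen with earlier results of these data known. TPM were transformed to log2(TPM + 1). The 12773 gene IDs whose mean reached 2 TPM in some condition entered a limma fit (version 3.58.1, R 4.3.3) that had a coefficient for each condition and moderation that followed mean expression. Tests were two-sided, with Benjamini-Hochberg adjustment. A gene was called at an adjusted p under 0.05, and 2-fold calls also needed a log2 fold change of 1 or more in size. An exact permutation test of 3 against 3 libraries cannot go below 0.1 and was not used. The fit was tested on simulated data. Comparisons share libraries, so their values are given side by side. The named genes were the members, MITF, at most 6 list genes per comparison with the largest 2-fold changes, and the 3 nearest genes of each member with a 2-fold call. BATF was also followed in every comparison, which was decided after its values were seen.

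Replicate numbers come from the sample titles. After subtracting condition means, all 18 pairs of libraries with the same number correlated across genes by more than 0.1 (0.102 to 0.625, median 0.279). Of 36 pairs with different numbers 6 did so (-0.474 to 0.226, median -0.196). After the means are subtracted, the deviations within a condition sum to 0. Pairs with different numbers therefore tend below 0 where those with the same number lie above it, and their median adds no separate evidence. Libraries of the same number thus shared deviations, but whether they were prepared together is not known. An alternative fit therefore took the replicate number as a block. The other alternatives were pseudocounts of 0.1 and 0.5, no filter, a mean of at least 5 TPM, quantile normalization, centring on the library median, no trend in the moderation, fits to the compared conditions alone, and each library left out. Rescaling without mitochondrial genes and leaving out the 4 replicate 2 libraries were added after seeing the data. Some items are not reported here, and counts over the lists keep them. Gene positions are from GENCODE version 44 and upstream sequences from RefSeq on GRCh38.p14. Tables used pandas 2.3.3 and numpy 2.4.6 in Python 3.11.15, and plots matplotlib 3.10.9.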

Additional observations from a re-analysis of the deposited data

How the results depend on the processing

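The alternatives gave 1232 further fold changes of the 9 tested genes over the 6 comparisons. The sign changed in 21 of them, with an absolute value of at most 0.13 and an adjusted p of at least 0.275 (limma). BATF2 with siMITF was at -0.10 with quantile normalization, at -0.027 with centring on the library median and at -0.020 to 0.028 without single libraries. FOSL1 with IFNγ in siMITF cells was at 0.0091 with quantile normalization and at -0.079 to 0.0015 without single libraries. Leaving out single libraries gave -0.00082 to 0.14 for JUND with IFNγ in siCTRL cells and -0.22 to 0.020 for ATF3 with IFNγ in siMITF cells. The interaction was at 0.052 for JUN, 0.015 for FOSL2 and 0.043 for BATF2 with quantile normalization, and without single libraries it ranged over -0.14 to 0.082 for JUN, -0.17 to 0.085 for JUNB and -0.20 to 0.13 for FOSL2. The cause was not tested.

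Of the members with 2-fold calls, the 2 with siMITF became 1 with quantile normalization, with centring and without siCTRL replicate 3 or siMITF replicate 2 (1 to 2 without single libraries), since JUND then lay just under 2-fold. Counts of 2-fold members in the other 4 comparisons were the same in every alternative run. With the replicate block, which takes out deviations shared by libraries of the same number, 1 member passed the interaction, as it did after rescaling without mitochondrial genes. The block changed no other call at an adjusted p under 0.05 than those given above. Quantile normalization and centring brought the same genes past the threshold, apart from ATF3 with IFNγ in siCTRL cells and the FOSL1 interaction. These settings also called more of all tested genes in each comparison. Rescaling without mitochondrial genes did so for JUN with IFNγ with either siRNA, JUNB with IFNγ in siCTRL cells, ATF3 with siMITF, and FOS and FOSL2 with both treatments. With no filter on low values, which brings the gene IDs adjusted over to 29003, FOSL2 missed the threshold with IFNγ (adjusted p = 0.0787 in siCTRL and 0.0742 in siMITF cells, limma), as did ATF3 with siMITF under IFNγ (adjusted p = 0.0653, limma), and FOSL2 missed it in siMITF cells when only the conditions compared were fitted (adjusted p = 0.0710, limma).

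Over all tested genes, 377 passed 2-fold with IFNγ in siMITF cells and 245 with a mean of at least 5 TPM, where fewer genes were tested. The interaction was called for 121 genes, and for 68 with a pseudocount of 0.1, 65 with a mean of at least 5 TPM, 294 with quantile normalization, 263 with centring, 276 with the replicate block, 220 after rescaling, 37 without the 4 replicate 2 libraries and 70 to 125 without single libraries, with 70 to 78 of them without siCTRL replicate 1 or 3, siCTRL + IFNγ replicate 3 or siMITF replicate 2 or 3. Counts of interactions are therefore the least stable of the values given. Unknown depth and 3 libraries per condition limit the precision, above all for FOSB, BATF and the BATF genes without IFNγ, which lie near or under 2 TPM.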

Other observations

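FOS, JDP2 and BATF lie near each other, in this order, on chromosome 14, with gaps of 145 kb and 48.3 kb between them. JDP2, which was singled out after its values were seen, encodes a Jun dimerization protein known to repress AP-1. It was at 0.652, 1.03 and 0.724 TPM in siCTRL, 0.740, 1.02 and 0.756 TPM in siCTRL + IFNγ, 2.17, 2.11 and 2.06 TPM in siMITF and 1.59, 2.04 and 1.97 TPM in siMITF + IFNγ libraries. All siMITF libraries were above all siCTRL libraries of either treatment. JDP2 reached a mean of 2 TPM only in siMITF cells, so its log2 difference with siMITF, 0.80 ± 0.12 (SE), is given without a test, while FOS and BATF fell by 0.45 and 0.96. With IFNγ in siCTRL cells JDP2 was at a log2 difference of 0.03 (95% interval -0.22 to 0.29), beside 0.49 for FOS and 1.01 for BATF. This JDP2 difference depended on the normalization. It was -0.33 with quantile normalization (limma, adjusted p = 0.0417), the 1 of 21 alternatives in which it passed. On chromosome 1, ATF3 and BATF3 are 65.6 kb apart on opposite strands, and IFNγ in siMITF cells gave -0.12 (95% interval -0.59 to 0.34) for ATF3 and 1.93 for BATF3.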
